A study of Mus musculus with 12 samples.

Results

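The 35 genes described here drive the cell cycle and DNA replication. They are the proliferation marker Mki67, 4 cyclin-dependent kinases, the kinase-activating phosphatase Cdc25a, 7 cyclins, 3 kinase inhibitors, 5 genes of E2F, RB and FOXM1 transcription, 8 replication genes and 6 mitotic genes. A ChIP-seq peak was linked to a gene when its summit lay within 50 kb of the gene's span, and all 35 were matched among 21887 coding genes of the mouse genome. Peaks came from ChIP-seq of ERα, the estrogen receptor encoded by Esr1, and of PR, the progesterone receptor. The tissue was the whole mammary gland of mice implanted at 8 weeks of age with estradiol and progesterone (E2+P4 in the labels) and sampled 4 days later. Esr1 carried the Y541S substitution, which alters the ligand-binding domain of the receptor, in one genotype and was wild type (WT) in the other, and every gland had received both hormones. Each receptor and genotype had 2 biological replicates, which makes 8 libraries, and the D542G samples were not analysed here. The labels do not give the number of animals behind a replicate or whether the mutation was carried on 1 or both alleles.

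The cell cycle runs on kinases that are active only while bound to a cyclin. D-type cyclins with CDK4 and CDK6 phosphorylate RB, which releases E2F factors to transcribe the genes of DNA synthesis, and inhibitors such as p27, the product of Cdkn1b, hold the kinases back. Later, cyclins A and B with CDK1 carry the cell into mitosis, and their genes are held silent in resting cells through the CHR element and activated through CCAAT boxes. In the mammary gland, estrogen and progesterone induce proliferation, in large part in neighbours of the receptor-positive luminal cells, through secreted factors. Peak lists show where a receptor was found on chromatin and not how much RNA a gene made. In whole glands, fewer cells with a bound site and less binding per cell cannot be told apart.

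The deposited lists held 64488 to 113695 peaks, and those of Y541S were longer than those of WT for each receptor. With ERα, 417 and 392 peaks were linked to a cell cycle gene in Y541S replicates 1 and 2, against 323 and 275 in WT replicates 1 and 2. That is 0.390% and 0.371% of the Y541S ERα lists, against 0.445% and 0.426% of the WT ERα lists. With PR, 419 and 376 peaks were linked in Y541S, against 310 and 355 in WT, which is 0.369% and 0.371% of the Y541S lists, against 0.374% and 0.380% of the WT lists. The share of the list was lower in both Y541S libraries than in both WT libraries for each receptor, by more for ERα than for PR. Links to all coding genes, relative to list length, had the same order. For ERα they numbered 210056 and 201562 in Y541S lists of 106926 and 105612 peaks. In WT ERα lists of 72566 and 64488 peaks they numbered 157920 and 140162. For PR they numbered 223364 and 200807 of 113695 and 101382 peaks in Y541S. In WT PR they numbered 169918 and 191976 of 82982 and 93491 peaks. All 7 luminal, 4 endothelial, 5 adipocyte and 4 immune marker genes checked had a linked peak in both libraries of every group. So did 4 of 5 basal genes with ERα in WT and all 5 elsewhere. In a single library 82.0% to 88.6% of all coding genes had a linked peak. With shares that high, the presence of a linked peak could hardly separate the cell types of the gland.

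The promoter windows below are shown because receptor peaks lay over some of them in all 8 libraries and over others in none. They are RefSeq sequences of GRCm38.p6, the assembly of mm10. Each runs from 250 bases before to 50 after an annotated start, in the direction of transcription. That start can lie inside the gene's span. Capitals mark CCAAT boxes (CCAAT), CHR elements (TTTGAA or TTCGAA) and E2F sites (TTTGGCGC, TTTCCCGC, TTTGCCGC or TTTCGCGC), each searched on both strands, and overlapping matches run together. Cdk1 (chr10:69352863-69353162, minus strand), Aurka (chr2:172370521-172370820, minus strand), Cdc25a (chr9:109875329-109875628, plus strand) and Mcm5 (chr8:75109259-75109558, plus strand) had a peak over the promoter in all 8 libraries. Mki67 (chr7:135716330-135716629, minus strand) and E2f1 (chr2:154569377-154569676, minus strand) had none in any library. The E2f1 window lies wholly inside the gene, whose span starts at 154569892 on this strand, and does not cover that outer start.

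Cdk1: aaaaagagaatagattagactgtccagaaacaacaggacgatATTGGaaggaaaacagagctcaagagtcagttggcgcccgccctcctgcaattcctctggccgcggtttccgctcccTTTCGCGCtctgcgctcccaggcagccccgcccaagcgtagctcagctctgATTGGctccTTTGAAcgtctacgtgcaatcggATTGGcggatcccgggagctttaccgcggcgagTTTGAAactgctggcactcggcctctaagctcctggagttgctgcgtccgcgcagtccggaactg
Aurka: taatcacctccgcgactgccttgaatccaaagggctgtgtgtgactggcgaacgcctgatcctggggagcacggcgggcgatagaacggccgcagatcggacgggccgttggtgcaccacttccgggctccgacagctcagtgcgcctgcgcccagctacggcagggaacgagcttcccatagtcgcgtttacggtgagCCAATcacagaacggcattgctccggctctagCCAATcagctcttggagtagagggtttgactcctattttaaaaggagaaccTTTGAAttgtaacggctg
Cdc25a: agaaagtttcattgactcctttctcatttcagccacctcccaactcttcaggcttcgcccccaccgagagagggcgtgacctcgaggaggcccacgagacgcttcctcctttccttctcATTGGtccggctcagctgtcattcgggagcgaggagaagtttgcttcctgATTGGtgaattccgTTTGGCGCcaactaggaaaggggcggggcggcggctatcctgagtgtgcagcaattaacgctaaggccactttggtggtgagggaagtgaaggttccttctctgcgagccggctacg
Mcm5: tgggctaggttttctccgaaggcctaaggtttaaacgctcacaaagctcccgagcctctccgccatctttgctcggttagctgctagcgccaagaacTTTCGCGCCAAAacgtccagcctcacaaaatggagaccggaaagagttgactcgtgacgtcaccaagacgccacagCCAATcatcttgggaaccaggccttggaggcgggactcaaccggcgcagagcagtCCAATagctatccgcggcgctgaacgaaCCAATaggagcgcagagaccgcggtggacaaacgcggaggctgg
Mki67: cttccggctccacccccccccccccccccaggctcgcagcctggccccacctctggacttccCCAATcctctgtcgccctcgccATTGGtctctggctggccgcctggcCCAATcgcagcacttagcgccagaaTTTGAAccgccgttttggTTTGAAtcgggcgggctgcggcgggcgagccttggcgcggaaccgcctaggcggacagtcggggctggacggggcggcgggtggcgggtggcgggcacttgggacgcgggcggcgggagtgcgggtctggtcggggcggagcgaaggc
E2f1: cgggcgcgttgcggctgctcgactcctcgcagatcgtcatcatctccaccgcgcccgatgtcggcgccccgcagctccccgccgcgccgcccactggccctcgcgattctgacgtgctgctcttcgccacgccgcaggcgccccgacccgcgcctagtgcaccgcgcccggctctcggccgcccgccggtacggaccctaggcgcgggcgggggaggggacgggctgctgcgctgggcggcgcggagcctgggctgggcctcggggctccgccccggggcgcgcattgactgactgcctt

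Of the 35 genes, 28 had promoters in the RefSeq table, 34 in all. A CCAAT box stood in 24 of these 34 promoters (70.6%), against 37.4% of all 32851 promoters of the table. An E2F site stood in 10 (29.4%), against 2.27% of all, and a CHR element in 12 (35.3%), against 19.2%. Cdk1 held all of these elements, with 3 CCAAT boxes, 2 CHR elements and 1 E2F site, and Mki67 held 3 CCAAT boxes and 2 CHR elements but no E2F site. No promoter of the 34 held the palindromic estrogen response element (GGTCA and TGACC, 3 bases apart) or the progesterone response element (GNACA and TGTNC, 3 bases apart), which stood in 0.0700% and 0.475% of all promoters. An estrogen response half-site (GGTCA) stood in 15 (44.1%), against 40.5% of all. A GC box (GGGCGG) stood in 27 promoters (79.4%), against 35.7%, and the median number of CpG dinucleotides was 24, against 7. These matches describe the letters of this window and not sites of binding.

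**Figure D1:**
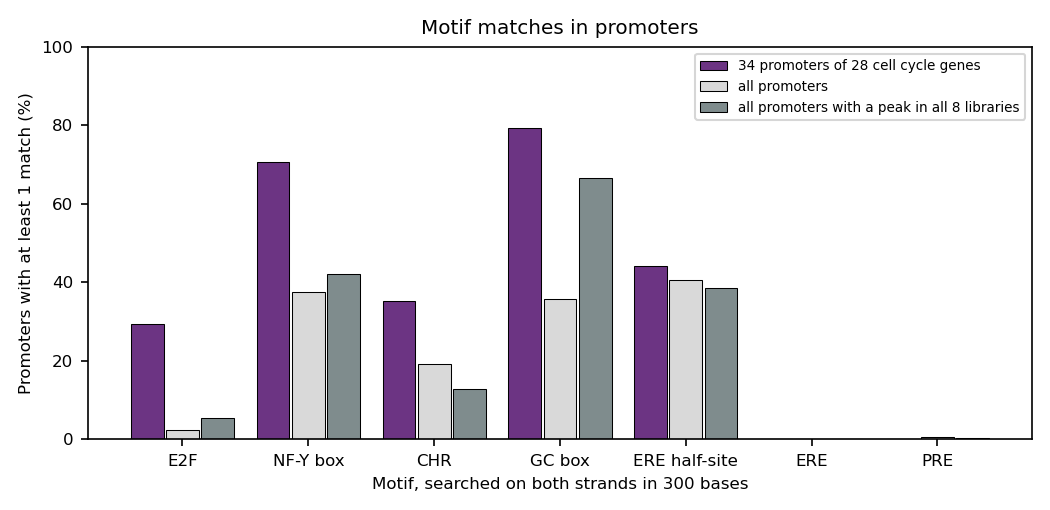
Share of promoters (vertical axis, percent) with at least 1 match to each motif (horizontal axis), for the 34 promoters of cell cycle genes, all 32851 promoters and the 5174 promoters with a receptor peak in all 8 libraries. The NF-Y box is the CCAAT box. E2F sites stood in 29.4%, 2.27% and 5.37% of these sets, and the response elements of both receptors were at or near 0.

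A peak overlapped 11 of the 34 promoters in all 8 libraries (32.4%), against 15.7% of all promoters, which include genes outside the coding set. They belong to Aurka, Cdc25a, Cdk1, Cdk4, Cdkn1b, E2f3, Mcm5, Mcm7, Pcna, Plk1 and Top2a, so kinases, an inhibitor, replication genes and mitotic genes were all among them. Only 3 promoter windows had no peak in any library, those of Mki67 and E2f1 and the upstream one of Cdkn1a, against 51.2% of all promoters. The E2f1 window lies inside the gene and misses its outer start. The E2f1 window was 77.3% G and C and the Mki67 promoter 72.7%, the upstream Cdkn1a promoter was 54.7%, and the median of the 34 was 58.3%. Summits within 1 kb of the outer start of Mki67 and of E2f1 were listed in all 8 libraries, so peaks flanked the 300 bases shown without overlapping them.

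Most of the 35 genes carried a peak with its summit within 1 kb of a gene end. Such a gene-end peak was listed in both libraries for 27 genes with ERα in Y541S and 23 with ERα in WT, where 49.7% and 41.2% of all coding genes had one. It was listed in both for 30 genes with PR in Y541S and 22 with PR in WT, where 50.4% and 38.1% of all coding genes had one. These counts are 77.1% and 65.7% of the cell cycle genes for ERα and 85.7% and 62.9% for PR. In the 28 genes whose strand was known, summits sat at the start, with 31 and 35 at the start and 3 and 4 at the far end in the Y541S ERα libraries, and 26 and 28 against 0 and 1 in the WT ERα libraries. WT PR replicate 1 had gene-end peaks at 22 genes, against 30 in WT PR replicate 2, so the WT PR count would be 30 without it.

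In all 8 libraries a gene-end peak was listed for 16 of the 35 genes, where 30.6% of all coding genes had one. It was listed in none for 2, Cdk6 and Cdkn1a, where 29.0% of all coding genes had none. Both have an annotated start inside the span, which this count leaves out. The inner Cdkn1a promoter had a peak over it in 4 libraries and the Cdk6 promoter in 2. A region inside Cdkn1a (chr17:29094135-29095347) was listed in all 8. Cdk6 encodes a partner of the D-type cyclins and Cdkn1a the inhibitor p21. The kinases Cdk1, Cdk2 and Cdk4 all had gene-end peaks in 8 libraries. By role, 7 of 8 replication genes had one in both Y541S ERα libraries, against 6 of 8 in both WT ERα libraries, and 5 of 6 mitotic genes had one in either genotype. For PR, all 6 mitotic genes had one in both Y541S libraries, against 4 of 6 in both WT libraries.

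Gene-end peaks of the cell cycle genes ranked higher within the ERα lists than within the PR lists. Ranked by the deposited −log10 p, with low percentages at the strong end, their medians were 24.4% and 23.0% in Y541S ERα and 35.5% and 32.1% in WT ERα. The medians were 50.9% and 41.8% in Y541S PR and 51.9% and 41.9% in WT PR. Gene-end peaks of all coding genes had the same order, with medians of 27.0% and 20.3% in Y541S ERα, 36.2% and 30.7% in WT ERα, 47.4% and 35.6% in Y541S PR and 46.9% and 37.0% in WT PR. Among the 20000 strongest peaks of each list, 11 genes had a gene-end peak in both libraries with ERα in Y541S and 6 with ERα in WT, where 27.1% and 20.6% of all coding genes did. With PR it was 0 genes in Y541S and 2 in WT, where 5.36% and 6.94% of all coding genes did. With a −log10 p of at least 5 it was 22 genes with ERα in Y541S and 15 with ERα in WT, where 39.7% and 28.5% of all coding genes did, and 28 with PR in Y541S and 10 with PR in WT, where 44.8% and 24.0% did. Among the 20000 strongest peaks the shares of cell cycle genes were therefore near those of all coding genes.

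**Figure D2:**
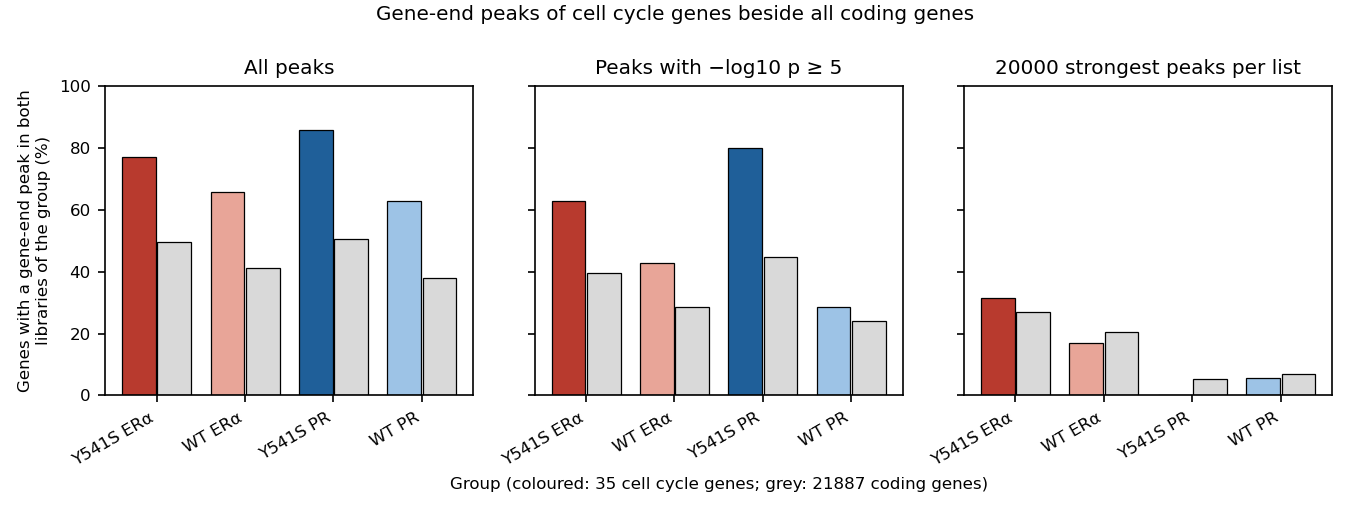
Share of genes (vertical axis, percent) with a gene-end peak in both libraries of each receptor and genotype (horizontal axis), for the 35 cell cycle genes (coloured bars) and all 21887 coding genes (grey bars), with all peaks, with a −log10 p of at least 5 and with the 20000 strongest peaks of each list. With all peaks the cell cycle genes stand above all coding genes in each group, at 62.9% to 85.7%, and with the strongest peaks they stand at 31.4% or less.

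The best-ranked gene-end peak was that of Aurka, a mitotic kinase, in a region that also lies at an end of Cstf1 (chr2:172370175-172371372). Its fold enrichment, the authors' value at the summit, was 7.17 and 6.87 for ERα in Y541S and 5.44 and 6.71 for ERα in WT. For PR the fold was 8.44 and 9.40 in Y541S and 5.25 and 8.14 in WT. Fold values are not normalised between libraries, so they show that all 8 libraries listed the site and not that binding differed. The start of Mcm7, a subunit of the replicative helicase, in a region that also lies at an end of Ap4m1, came next with 4.66 and 7.11 for ERα in Y541S and 5.10 and 5.20 for ERα in WT.

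Among the kinases, the region at the start of Cdk4 (chr10:127062563-127064139) had folds of 5.09 and 4.41 for ERα in Y541S and 3.25 and 4.67 for ERα in WT. For PR it had 4.65 and 6.35 in Y541S and 3.44 and 5.25 in WT. The start of Cdkn1b (chr6:134919830-134921148) was likewise listed in all 8 libraries, with ERα folds of 3.98 and 4.71 in Y541S and 3.09 and 4.29 in WT. A promoter peak was thus present in every library both at a kinase of the early cycle and at an inhibitor.

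Peaks linked to the cell cycle genes lay mostly away from gene ends. Between 8.52% and 11.8% of links in a library were gene-end peaks, 12.5% to 17.0% lay inside the gene and 71.4% to 76.3% outside it. Of those outside, 21.9% to 31.3% lay at the end of another coding gene, so a linked peak need not belong to the cell cycle gene. The median gene had 11 and 10 linked peaks with ERα in Y541S and 9 and 8 with ERα in WT, where all coding genes had medians of 9 and 9, and 7 and 6. With PR the median was 11 and 10 in Y541S and 9 and 9 in WT, against 10 and 9, and 7 and 8 for all coding genes. Cell cycle genes spanned a median of 14.3 kb, against 17.2 kb for all coding genes, and both had a median of 3 other coding genes within 50 kb. At the edges of the windows the numbers were small for the gene-end limit and even for the outer one, with 17 summits over the 8 libraries in the last 100 bp inside the gene-end limit and 7 in the first 100 bp beyond it, and 53 in the last kb inside the 50 kb window and 52 in the first kb beyond it.

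**Figure D3:**
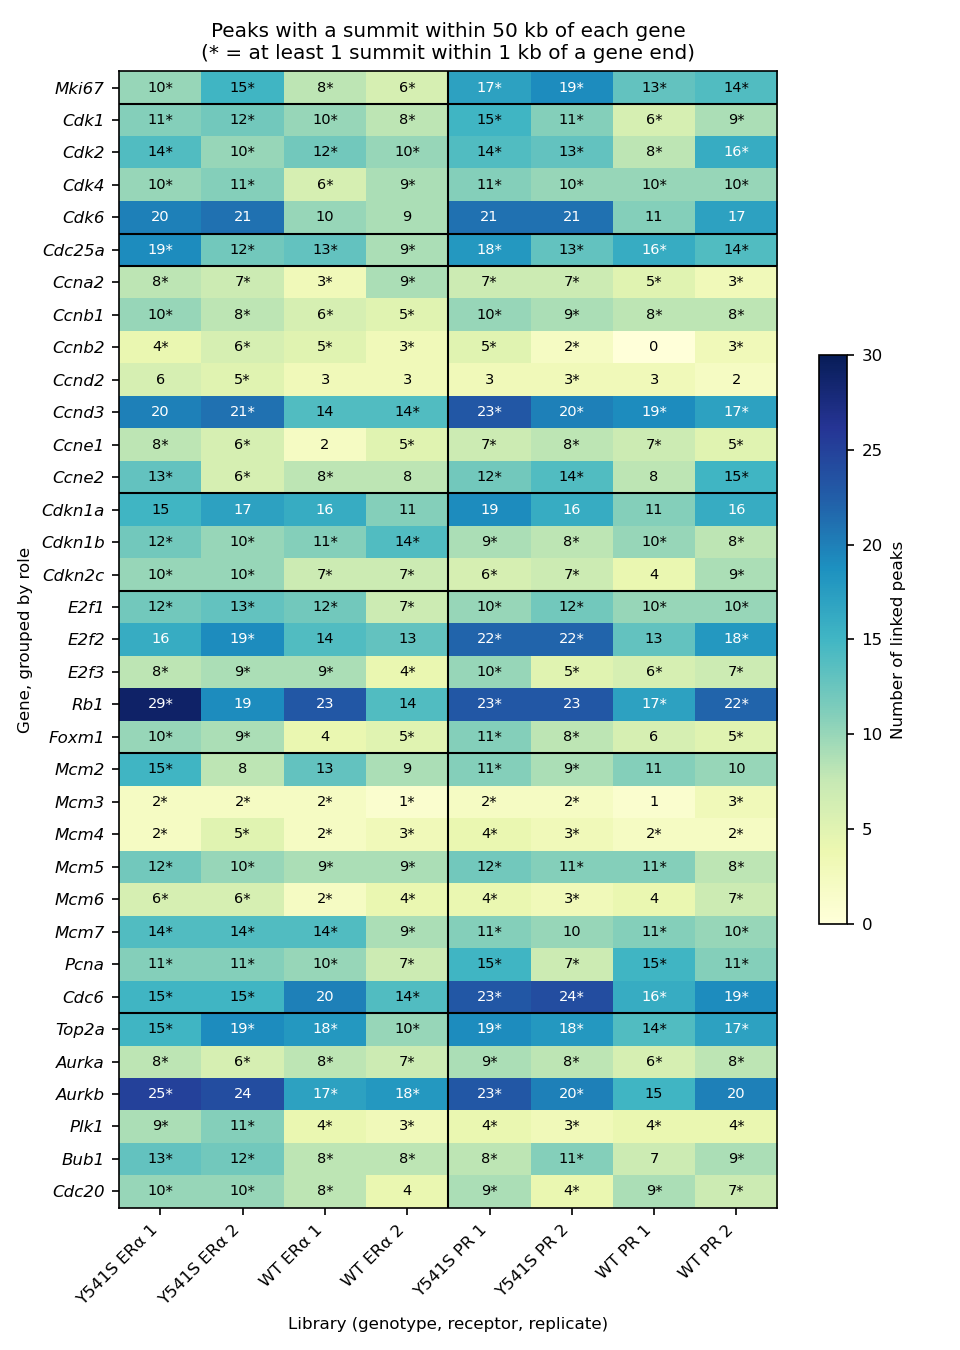
Number of peaks with a summit within 50 kb of each gene (rows, grouped by role) in each of the 8 libraries (columns, labelled by genotype, receptor and replicate), with an asterisk where at least 1 summit lay within 1 kb of a gene end. The numbers run from 0 for Ccnb2 in WT PR replicate 1 to 29 for Rb1 in Y541S ERα replicate 1.

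A linked peak was listed in all 8 libraries for 34 of the 35 genes, where 77.7% of all coding genes had one. The exception was Ccnb2, which encodes cyclin B2. It had 4 and 6 linked peaks with ERα in Y541S and 5 and 3 with ERα in WT, and 5 and 2 with PR in Y541S and 0 and 3 with PR in WT. The zero fell in the library with the fewest gene-end peaks.

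Mki67 encodes the Ki-67 protein of the mitotic chromosome surface. It had 10 and 15 linked peaks with ERα in Y541S and 8 and 6 with ERα in WT, and 17 and 19 with PR in Y541S and 13 and 14 with PR in WT. In these numbers both Y541S libraries were above both WT libraries for each receptor. Per 100000 peaks of the list the genotypes overlapped, with 9.35 and 14.2 in Y541S and 11.0 and 9.30 in WT for ERα, and 14.95 and 18.74 in Y541S and 15.67 and 14.97 in WT for PR. Pcna, the sliding clamp of DNA polymerases, had 11 and 11 with ERα in Y541S and 10 and 7 with ERα in WT, and 15 and 7 with PR in Y541S and 15 and 11 with PR in WT, so the PR groups overlapped. Mcm2, another helicase subunit, had 15 and 8 with ERα in Y541S and 13 and 9 with ERα in WT, and the groups overlapped. Cdkn1a had 15 and 17 with ERα in Y541S and 16 and 11 with ERα in WT, which also overlapped. Ccnd2, which encodes cyclin D2, had few peaks in any library, 6 and 5 with ERα in Y541S and 3 and 3 with ERα in WT, and 3 and 3 with PR in Y541S and 3 and 2 with PR in WT.

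Rb1, whose protein restrains E2F, had 29 and 19 linked peaks with ERα in Y541S and 23 and 14 with ERα in WT, and 23 and 23 with PR in Y541S and 17 and 22 with PR in WT. Cdk6, the longest of the 35 genes at 190 kb, had 20 and 21 with ERα in Y541S and 10 and 9 with ERα in WT, and 21 and 21 with PR in Y541S and 11 and 17 with PR in WT. Its genotypes did not overlap for either receptor, before or after scaling to list length. Top2a, the topoisomerase that untangles chromosomes, had 15 and 19 with ERα in Y541S and 18 and 10 with ERα in WT, and the groups overlapped. Mcm3, a helicase subunit, had the fewest, between 1 and 3 in any library.

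Before scaling to list length, both Y541S ERα libraries had more linked peaks than both WT ERα libraries at 18 of the 35 genes, where 40.8% of all coding genes did, and the reverse held at 0, where 0.950% did. For PR the count was 12, where 24.5% of all coding genes did, and 0, where 3.15% did. Between receptors in Y541S, ERα was above PR in both libraries at 9 genes, where 15.8% of all coding genes were, and below it at 3, where 18.0% were. In WT, ERα was above PR at 1 gene and below it at 7, where 4.58% and 27.0% of all coding genes were. The lists were longer in Y541S, and the direction for ERα turned with scaling to list length, a comparison added after the data were seen.

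Per 100000 peaks, both Y541S ERα libraries were above both WT ERα libraries at 4 genes, Cdk6, Ccnd2, Plk1 and Foxm1, where 13.9% of all coding genes were. They were below at 12, where 26.0% of all coding genes were: Cdk1, Cdk2, E2f2, Cdkn1a, Cdkn1b, Cdkn2c, Mcm5, Mcm7, Pcna, Aurka, Aurkb and Cdc6. All 3 inhibitors stood on that side, but Cdkn2c by little, at 9.352 and 9.469 in Y541S against 9.646 and 10.85 in WT. Before scaling, Cdkn2c went the other way, with 10 and 10 linked ERα peaks in Y541S and 7 and 7 in WT. For PR, Y541S was above at 6 genes and below at 6, where 12.8% and 19.7% of all coding genes were. Between receptors in Y541S, ERα was above PR at 9 genes and below it at 4, where 20.4% and 22.7% of all coding genes were. In WT, ERα was above PR at 13 genes and below it at 2, where 22.3% and 15.3% of all coding genes were, so there too the order of the counts turned with scaling.

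With each library scaled to 100000 peaks, no cell cycle gene passed limma's test with Benjamini-Hochberg adjustment over 18541 coding genes, in any of 5 contrasts, and 3 of the 35 were below an unadjusted 0.05 for ERα in Y541S over WT, 0 for PR in Y541S over WT, 2 for ERα over PR in Y541S, 3 for ERα over PR in WT and 1 for the difference between the ERα and PR effects. Over all genes, 1, 0, 0, 49 and 0 passed in these contrasts, which is 0.00539%, 0%, 0%, 0.264% and 0%. At an unadjusted p under 0.05 it was 3110, 865, 2085, 3186 and 1270 genes. The 1 gene called for ERα became 73 without WT ERα replicate 1, 87 without WT ERα replicate 2 and 0 without any of the 4 Y541S libraries in turn, and no cell cycle gene was among those called. The 49 genes called for ERα over PR in WT became 4 and 11 without Y541S ERα replicate 1 or 2, 288 and 170 without WT ERα replicate 1 or 2, 7 and 6 without Y541S PR replicate 1 or 2, and 1 and 152 without WT PR replicate 1 or 2. Among the 35 genes, the lowest adjusted p for ERα in Y541S over WT belonged to Cdc6, which loads the helicase at origins, with 15 and 15 linked peaks in Y541S and 20 and 14 in WT before scaling. Its log2 fold change was -0.79 with a standard error of 0.20 and a limma adjusted p of 0.122. Without scaling, the median log2 fold change of all genes for this contrast was 0.46, against -0.17 with it, so the direction of a gene's change relative to zero depends on the scaling.

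Plk1, a mitotic kinase, had 9 and 11 linked peaks with ERα in Y541S and 4 and 3 with ERα in WT, and 4 and 3 with PR in Y541S and 4 and 4 with PR in WT. The 2 Y541S ERα libraries stood above the other 6. The log2 ratio of ERα over PR in Y541S was 1.41 with a standard error of 0.42 and a limma adjusted p of 0.241. Cdkn1b had 12 and 10 linked peaks with ERα in Y541S and 11 and 14 with ERα in WT, and its scaled log2 fold change was -0.81 with a standard error of 0.29 and a limma adjusted p of 0.191. Ccnb2 had a log2 ratio of ERα over PR in WT of 2.09 with a standard error of 0.73 and a limma adjusted p of 0.166, and it passed when WT PR replicate 2 was left out. Cdk1, at 0.63 with a standard error of 0.27 and a limma adjusted p of 0.251 in that contrast, passed when peaks with a −log10 p of at least 5 were used. Each of these missed the threshold with all peaks and libraries, which does not show that the groups were alike.

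Overlapping peaks were merged into regions, separately for each receptor, to ask whether the same places were bound in both genotypes. A region with an ERα peak in all 4 ERα libraries was linked to all 35 genes, where 72.4% of coding genes had one, and there were 125 such regions. A region in all 4 PR libraries was linked to 32 genes, where 78.2% of coding genes had one, and there were 156. Aurkb had the most of both, with 12 ERα and 10 PR regions, and Cdc25a had 7 and 10. Aurkb encodes the kinase of the chromosomal passenger complex. Regions bound in both Y541S libraries were linked to all 35 genes for ERα and for PR, where 80.9% and 84.2% of coding genes had one, and regions bound in both WT libraries to 35 and 32, where 74.8% and 79.1% did. Cdk2, Mcm7, Ccnd3 and Rb1 had 6 constant ERα regions each. Ccnd3 had 9 constant PR regions, and Rb1, Cdkn1a, Top2a and Cdc6 had 8 each.

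Regions bound in both Y541S libraries and neither WT library were found at 20 genes for ERα, where 49.4% of coding genes had one, and at 24 genes for PR, where 55.2% did. They were 31 ERα regions and 44 PR regions. The reverse, bound in both WT libraries and neither Y541S library, was found for ERα at 3 genes, Mcm2, Ccna2 and Cdkn2c, where 11.5% of coding genes had one. For PR it was found at 1 gene, Mcm6, where 9.64% did. These counts need a peak in both libraries of one genotype and in none of the other, so leaving out a library raises them by construction. The ERα count of 3 became 12 and 6 without Y541S replicate 1 or 2 and 30 and 30 without WT replicate 1 or 2, and the PR count of 1 became 10 and 2, and 28 and 33. The ERα count of 20 bound only in Y541S became 34 and 34 without Y541S replicate 1 or 2. The ERα regions bound only in Y541S had a median rank of 50.1% of their lists, against 20.8% for the constant ERα regions.

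Cdc25a had the most ERα regions bound only in Y541S, with 4, of which 1 lay inside the gene, 1 at a gene end and 2 outside, at 2.89 kb and 28.9 kb. Their folds in Y541S ran between 2.16 and 3.78. Cdkn2c, which encodes the inhibitor p18, and Cdk6 had 3 each, and Cdkn1a, Ccnd3, E2f1 and Plk1 had 2 each. The strongest of all lay 2.95 kb from Cdk4, at the end of Tspan31 (chr10:127070063-127070834), with ERα folds of 4.69 and 5.04 in Y541S and no ERα peak in WT. PR was listed there in all 4 libraries, with folds of 3.96 and 4.34 in Y541S and 2.87 and 3.35 in WT.

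For PR, Cdc6 had 4 regions bound only in Y541S, and Ccnd3, Mki67, Top2a, Cdkn1a and Aurkb had 3 each. Cdc6 and Top2a lie close together and shared 1 of these regions, which falls in Rara, the retinoic acid receptor alpha gene. The strongest PR region bound only in Y541S lay 17.9 kb from Mcm4, another helicase subunit (chr16:15605790-15606341), with PR folds of 13.6 and 7.24 in Y541S, no PR peak in WT and no ERα peak in any library. Ube2v2 is the closer gene, at 11.5 kb. The single PR region bound only in WT lay inside Mcm6 (chr1:128355750-128356154), with folds of 4.63 and 3.97 in WT.

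Of the 31 ERα regions bound only in Y541S, 11 had a PR peak in both Y541S libraries, which is 35.5%, against 37.3% of such regions genome-wide. In both WT PR libraries 7 of the 31 had a peak (22.6%), against 19.6% genome-wide. No PR peak at all was listed at 11 (35.5%), near the 32.7% genome-wide. At 3 places both receptors were bound only in Y541S, near Mki67 (chr7:135651684-135652255), Ccnd3 (chr17:47646511-47647001) and Bub1 (chr2:127788757-127789110). Such places were not counted genome-wide, so no share stands beside the 3. Bub1 encodes a kinase of the spindle checkpoint. Near Mki67, ERα in Y541S had folds of 3.70 and 3.53 there and PR in Y541S had 3.54 and 4.60, with no peak in any WT library, and the site lies 37.7 kb away, inside Ptpre.

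A region bound by both in both Y541S libraries was linked to all 35 genes, where 76.2% of coding genes had one, and to 32 genes in WT, where 66.1% did. ERα-only regions were linked to 23 genes in Y541S and 14 in WT, where 44.3% and 32.6% of coding genes had one. Without WT ERα replicate 1 or 2 the WT count of 14 became 33 and 31, and without WT PR replicate 2 it became 27. PR-only regions were linked to 27 genes in Y541S and 24 in WT, where 70.7% and 61.6% did. Of the ERα peaks linked to cell cycle genes, 52.5% and 48.0% overlapped a PR peak of the same replicate number in Y541S, and 41.5% and 53.1% did in WT. Over all ERα peaks it was 45.2% and 37.4% in Y541S and 36.2% and 38.9% in WT. The 95% Wilson intervals of the cell cycle values were 47.7% to 57.3% and 43.1% to 52.9% in Y541S and 36.2% to 46.9% and 47.2% to 58.9% in WT, and cover counting error only. A region bound in all 8 libraries was linked to 31 genes, where 64.8% of coding genes had one, and not to Ccnb2, Ccnd2, Mcm3 or Mcm6.

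The best-ranked ERα sites were distal, with PR weak or not listed. The strongest lay 25.7 kb beyond the far end of Cdk1 (chr10:69309036-69309819), with ERα folds of 19.5 and 17.3 in Y541S and 14.6 and 16.5 in WT. It ranked in the top 0.517% of every ERα list. PR was listed there in Y541S only, with folds of 3.45 and 4.04, ranking at 77.5% and 62.0% of those lists. Rhobtb1 is the closer gene, at 17.6 kb. Near Cdkn2c, 9.09 kb away (chr4:109651611-109652099), ERα had folds of 15.8 and 12.4 in Y541S and 22.3 and 8.24 in WT, and PR had no peak in any library. Another site, 29.1 kb from Pcna and inside Cds2 (chr2:132282008-132282489), had ERα folds of 13.1 and 8.97 in Y541S and 13.3 and 11.5 in WT, with PR folds of 2.73 to 3.95 over the 4 PR libraries.

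**Figure D4:**
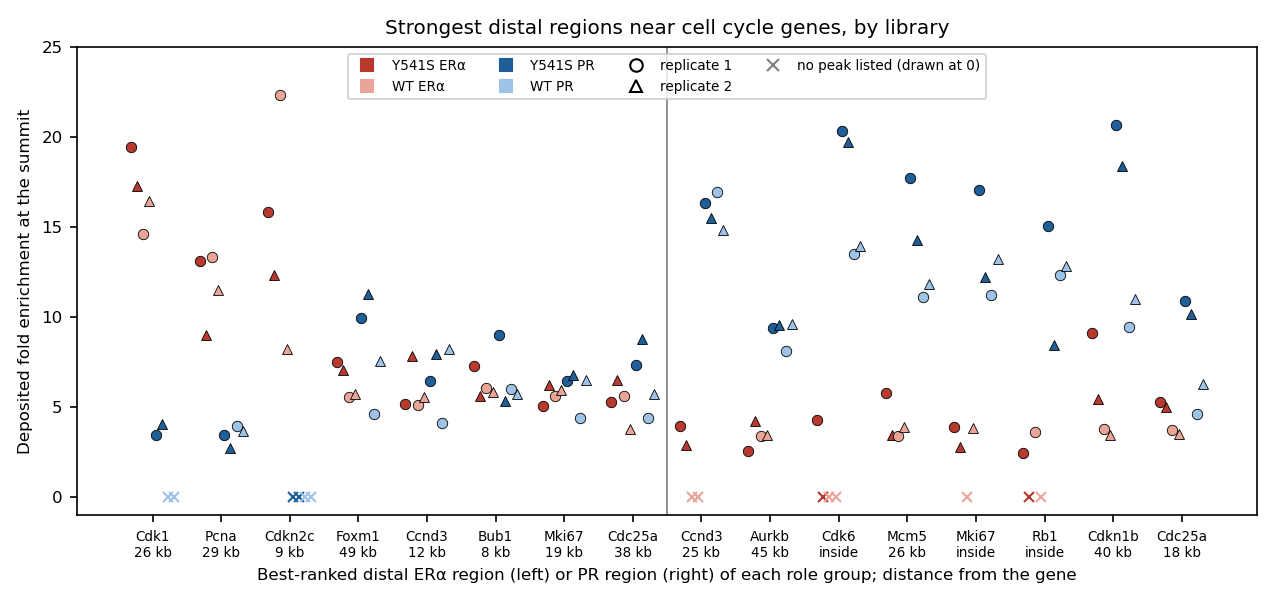
Deposited fold enrichment at the summit (vertical axis) in each of the 8 libraries, for the best-ranked distal ERα region (left) and PR region (right) of each role group (horizontal axis, with the distance to the gene); crosses at 0 mark libraries with no peak listed. The ERα sites near Cdk1, Pcna and Cdkn2c have folds of 8.24 to 22.3 for ERα with PR at 4.04 or less or absent, and the sites on the right are high for PR.

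Where both receptors were listed in every library, the best-ranked ERα sites of the other roles mostly lay at or inside neighbouring genes. The site 49.0 kb from Foxm1, which encodes an activator of mitotic genes, lay at Itfg2, with ERα folds of 7.52 and 7.05 in Y541S and 5.54 and 5.74 in WT and PR folds of 9.96 and 11.3 in Y541S and 4.62 and 7.53 in WT. The site 7.78 kb from Bub1 lay at Mtln, and had ERα folds of 7.27 and 5.60 in Y541S and 6.04 and 5.81 in WT. The site 11.7 kb from Ccnd3 lay at Bysl, with ERα folds of 5.18 and 7.81 in Y541S and 5.13 and 5.56 in WT. The site 37.7 kb from Cdc25a lay inside Map4, with ERα folds of 5.25 and 6.48 in Y541S and 5.63 and 3.78 in WT. The site 19.4 kb from Mki67 had no closer coding gene, with ERα folds of 5.04 and 6.20 in Y541S and 5.63 and 5.96 in WT.

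At other genes PR ranked high in its lists, and ERα ranked lower in its own or was not listed. The best-ranked PR site lay 25.1 kb before the start of Ccnd3, which encodes cyclin D3 (chr17:47479685-47480261), with PR folds of 16.3 and 15.5 in Y541S and 16.9 and 14.8 in WT, in the top 0.498% of every PR list. Taf8 is the closer gene, at 3.395 kb. ERα was listed there in Y541S only, with folds of 3.94 and 2.91. Inside Cdk6, the kinase that cyclin D3 binds, a PR site (chr5:3529508-3530181) had folds of 20.3 and 19.7 in Y541S and 13.5 and 13.9 in WT, with an ERα peak only in Y541S replicate 1.

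Further PR sites lay inside Mki67 (chr7:135691875-135692470), with folds of 17.0 and 12.2 in Y541S and 11.2 and 13.2 in WT, and inside Rb1 (chr14:73249262-73249909), with 15.1 and 8.45 in Y541S and 12.4 and 12.8 in WT. ERα folds at the Mki67 site were 3.87 and 2.79 in Y541S and 3.83 in WT replicate 2, with no peak in WT replicate 1. In Rb1, ERα was listed in replicate 1 only, with 2.43 in Y541S and 3.61 in WT. Near Mcm5, 26.5 kb away (chr8:75154549-75155214), PR folds were 17.7 and 14.3 in Y541S and 11.1 and 11.8 in WT. ERα had 5.78 and 3.44 there in Y541S and 3.37 and 3.91 in WT. A site 40.1 kb from Cdkn1b and at Crebl2 (chr6:134880010-134880689) had PR folds of 20.7 and 18.4 in Y541S and 9.43 and 11.0 in WT, and ERα folds of 9.09 and 5.46 in Y541S and 3.75 and 3.46 in WT. The site 45.4 kb from Aurkb lies inside the clock gene Per1, with PR folds of 9.37 and 9.55 in Y541S and 8.09 and 9.60 in WT. ERα was listed there in every library, ranking at 28.2% and 2.73% in Y541S and 11.2% and 8.55% in WT. Near Ccnb1, which encodes cyclin B1, a site 15.9 kb away inside Cenph (chr13:100762717-100763123) had PR folds of 19.2 and 14.1 in Y541S and 5.44 and 6.23 in WT, and ERα folds of 3.35 and 3.63 in Y541S with no ERα peak in WT. Peak heights were not scaled between libraries, and no difference in fold was tested.

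**Figure D5:**
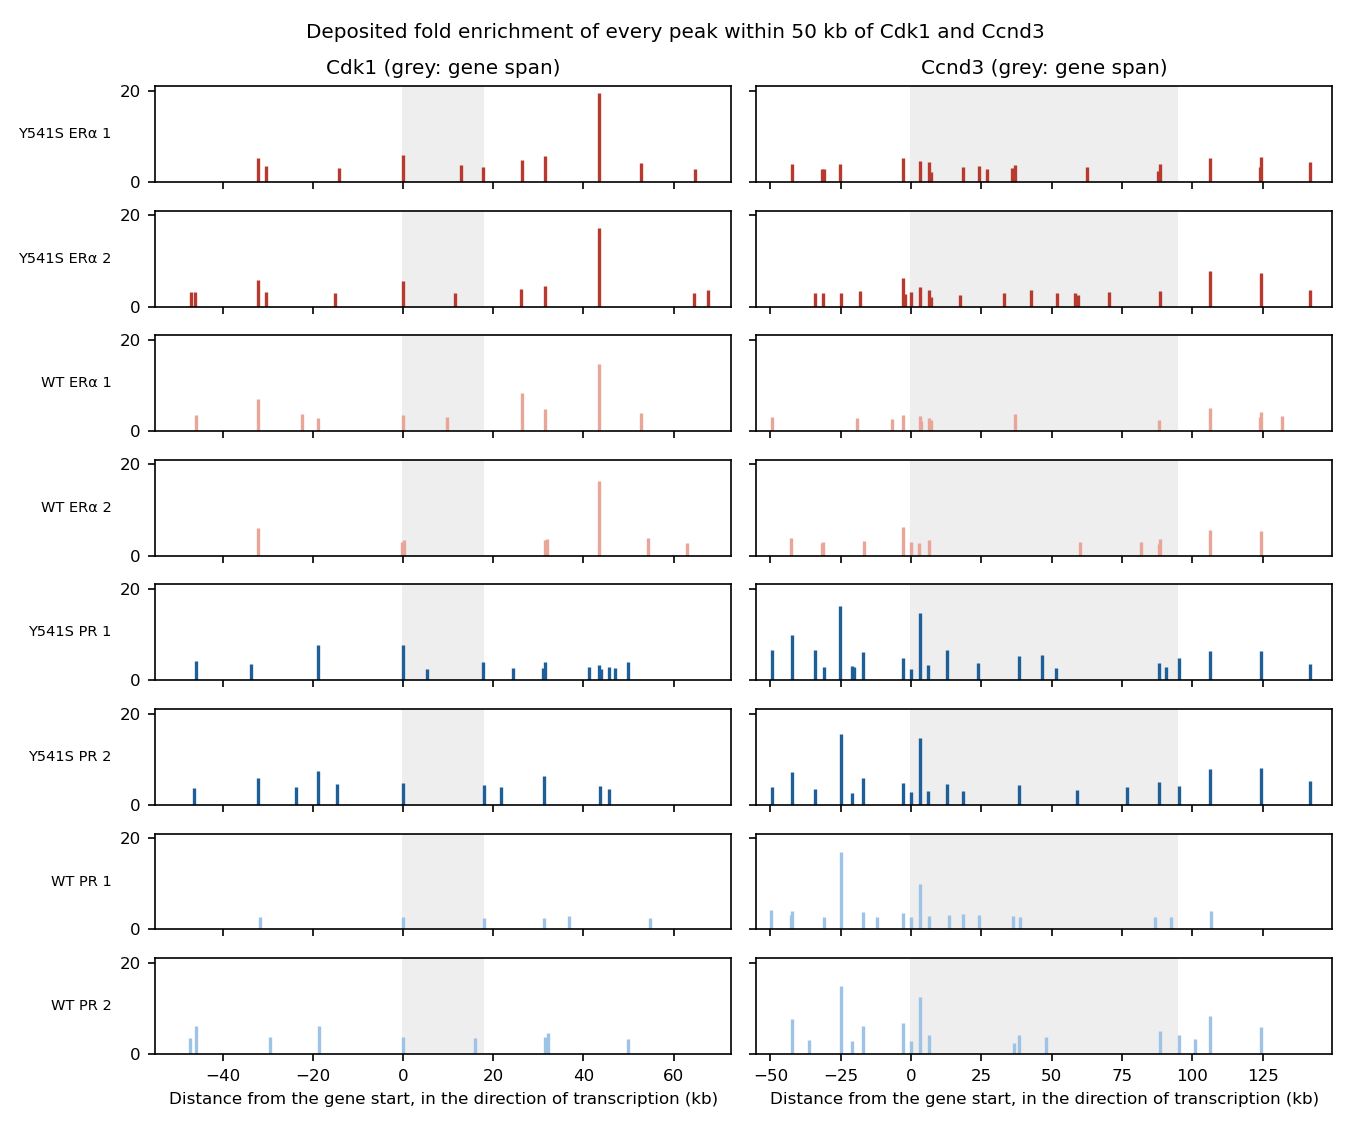
Deposited fold enrichment (vertical axes) of every peak within 50 kb of Cdk1 (left) and Ccnd3 (right) in the 8 libraries (rows), by distance from the gene start in the direction of transcription (horizontal axes, kb); grey marks the gene span. The ERα site beyond Cdk1 has folds of 14.6 to 19.5, and the PR site before Ccnd3 has folds of 14.8 to 16.9.

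A second list held 92 genes of origin licensing, the replication fork, CDK regulation, RB, E2F and MuvB transcription, mitosis and checkpoints. It did not contain all of the 35 genes, since all 92 had linked peaks in both WT PR libraries and Ccnb2 did not. Its shares are thus those of another set of genes. It gave 0 genes past limma's adjusted threshold in either direction in every contrast, where the 35 genes also gave 0. Gene-end peaks were listed in both libraries for 85 of the 92 with ERα in Y541S and 75 with ERα in WT (92.4% and 81.5%), where 49.7% and 41.2% of all coding genes had one. It was 80 with PR in Y541S and 67 with PR in WT (87.0% and 72.8%), where 50.4% and 38.1% of all coding genes had one. In all 8 libraries it was 62 of the 92 (67.4%), against 30.6% of all coding genes. ERα regions bound only in Y541S were linked to 50 of the 92 (54.3%) and PR ones to 51 (55.4%), near the 49.4% and 55.2% of all coding genes. Regions bound only in WT were linked to 9 for ERα (9.78%) and 15 for PR (16.3%), against 11.5% and 9.64% of all coding genes. All 6 checkpoint genes of the list had a gene-end peak in all 8 libraries.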

How the data were processed

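Formalin-fixed glands were sheared to 300 to 500 bp before precipitation, per the labels' protocols. Every library has its own peak list, called by the authors without pooling. Coordinates are on mm10, as the submitters' processing notes state. Aligner, peak caller and input use are not given in the sources used here. Peaks carry, in the deposited lists, a whole-number score, a fold (a ratio) and a −log10 p that was never below 2. Fold and −log10 p were used only to rank, filter or describe peaks within a list. A longer list can follow from depth, precipitation or binding; depth is unknown.

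Summits were linked to RefSeq coding genes within 50 kb, and those within 1 kb of a gene end were set apart. Peaks overlapping by at least 1 bp were merged into regions. Linked peaks per gene were compared with limma 3.58.1 in R 4.3.3 on log2 of the number plus 0.5 per 100000 peaks, for genes averaging at least 1 linked peak, with a Benjamini-Hochberg adjusted threshold of 0.05. Exact permutation of 2 against 2 libraries cannot give a p below 0.33 and was not used. The limma test was tried on simulated data, and a gene that was not called may still differ. Intervals are 95% Wilson intervals. Other tables used Python 3.11.15, pandas 2.3.3 and numpy 2.4.6.

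The members and lists were chosen with earlier results of these data known. Named genes were Mki67, Cdk1, Ccnd2, Cdkn1a, Pcna and Mcm2, those with most regions of each class, those lacking linked peaks in a group, and those at the best-ranked gene-end and distal regions of each role. Other genes named by value (the lowest adjusted p, the strongest genotype-specific sites and sites bound by both receptors only in Y541S) were picked once their values had been seen. The alternatives tried were other peak thresholds, windows, overlap rules, scalings and filters, a replicate block and leaving out each library; counts of non-overlapping genes per 100000 peaks were added after seeing the data.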

Additional observations from a re-analysis of the deposited data

Results flagged for a closer look

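At 3 genes the number of linked peaks per 100000 moved in opposite directions for the receptors, with both libraries of one genotype beyond both of the other each time. How many of all coding genes did so was not counted, so the 3 cannot be read as particular to the cell cycle genes. The difference between receptors was not tested by this comparison, and limma's contrast of the ERα and PR effects called none of the 3. Cdk1 had 10.3 and 11.4 in Y541S and 13.8 and 12.4 in WT for ERα, a difference of -2.27, and 13.2 and 10.9 in Y541S and 7.23 and 9.63 in WT for PR, a difference of 3.59. E2f2, a transcription factor of the DNA synthesis genes, differed by -3.25 for ERα and by 3.07 for PR, Y541S minus WT. Plk1 differed by 4.33 for ERα and by -1.31 for PR. The limma adjusted p of the difference between effects was 0.729 for Cdk1, 0.739 for E2f2 and 0.729 for Plk1.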

How the results depend on the processing

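Of the values recomputed under settings other than leaving out a library, 38 stayed within 1.5 times the main count and 34 moved, and the cause was not tested. Correlations between groups of the deviations of same-numbered libraries were -0.000727 to 0.131, highest for ERα with PR in WT. They cannot show whether such libraries came from the same glands. With a replicate block, limma called 2 genes for ERα in Y541S over WT and 176 for ERα over PR in WT, and no cell cycle gene. In these contrasts it called 115 and 88 genes without scaling to list length, 0 and 0 with no filter on genes, and 0 and 609 with a −log10 p of at least 5. For ERα over PR in Y541S it called 231 with no filter and 3 with a −log10 p of at least 5. At that minimum, 15 cell cycle genes had a gene-end peak in both libraries with ERα in WT and 10 with PR in WT, 12 had an ERα region bound only in Y541S, 3 a PR region bound only in WT and 14 an ERα-only region in Y541S. With the 20000 strongest peaks of each list, gene-end peaks were found at 11 genes with ERα in Y541S, 6 with ERα in WT, 0 with PR in Y541S and 2 with PR in WT. There, 11 genes had an ERα region and 3 a PR region bound only in Y541S, 3 a PR region bound only in WT, 10 a region of both receptors in Y541S and 12 in WT, and 13 a PR-only region in WT. With a window of 10 kb, 8 genes had an ERα region bound only in Y541S, 1 an ERα region bound only in WT and 12 a PR region bound only in Y541S. ERα-only regions were then found at 9 genes in Y541S and 6 in WT, and PR-only regions at 14 in Y541S and 9 in WT. Counting regions as shared only with summits within 150 bp, 9 genes had an ERα region and 6 a PR region bound only in WT. Under these settings, regions were counted for the cell cycle genes only. Whether such changes are particular to them or common to all coding genes was not tested.

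Leaving out each library in turn gave 0 to 87 genes called for ERα in Y541S over WT, 0 to 3 for PR in Y541S over WT, 0 to 1 for ERα over PR in Y541S, 1 to 288 for ERα over PR in WT and 0 to 5 for the difference between effects. A lone library was then assumed to vary like the other groups. Of the cell cycle genes, 22 to 34 had an ERα region and 25 to 34 a PR region bound only in Y541S, and 6 to 30 an ERα region and 2 to 33 a PR region bound only in WT. ERα-only regions were found at 25 to 34 in Y541S and 16 to 33 in WT. Gene-end peaks were found at 30 to 30 genes with ERα in Y541S, 25 to 27 with ERα in WT, 31 to 32 with PR in Y541S and 22 to 30 with PR in WT. Fewer libraries are required to hold a peak in these fits, which raises such counts. Region and gene-end counts without a library were made for the cell cycle genes only, so no share of all coding genes stands beside them. A peak below the deposited threshold is not listed, so a region bound in one genotype only can hold signal in the other.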
